A study of Mus musculus with 6 samples.

Results

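Aminoacyl-tRNA synthetases are the enzymes that load each transfer RNA with its amino acid, and they were described here as 36 genes of the 24346 symbols in the tables. The members were chosen by name: 20 genes for cytosolic enzymes, and 16 nuclear genes whose symbols end in 2 and whose enzymes work in mitochondria. Messenger RNA was sequenced from 4T1, a line of mouse mammary carcinoma that metastasises when grafted. The target of the hairpin RNAs was AU021063, a long noncoding RNA, with a different hairpin in the cells labelled shRNA1 and in those labelled shRNA3, and WT cells were mock transfected. Each group had 2 libraries, 6 in all. The series title names an action of AU021063 on Trib3, a pseudokinase gene of the amino acid response, and the comparison made here asks how the cytosolic and the mitochondrial enzymes stood with each hairpin against WT.

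The labels name no group with a non-targeting hairpin, so the effect of carrying a hairpin and that of the target cannot be told apart. Nor do they say that replicates were separate cultures, so p-values reflect only the spread among these libraries, and that spread may be technical. Levels are in FPKM, fragments scaled by the length of the transcript and by the mapped fragments of the library, so they can be compared between genes. In bulk RNA, fewer cells with a transcript and less of it per cell cannot be told apart. The median difference between replicates was 4.32% to 4.47% over the 6943 genes whose mean reached 10 FPKM. Relative depth ranged from 86.8% to 105.4% of that of WT replicate 1. AU021063 measured 1.04 and 0.572 FPKM with shRNA1 and 0.785 and 0 FPKM with shRNA3, against 1.82 and 1.67 FPKM in WT. It was lower in every hairpin library than in both WT libraries, but its mean lay under the minimum of 1 FPKM for a test. The epithelial keratins Krt8 (263 to 481 FPKM) and Krt18 (457 to 587 FPKM) were high in all 6 libraries, Epcam ranged from 2.04 to 5.14 FPKM and Cdh1 from 1.22 to 1.83 FPKM, and the basal keratin Krt14 did not exceed 0.0420 FPKM. The leukocyte markers Ptprc, Cd3e and Itgam and the endothelial marker Kdr were listed at 0 in every library. Of 3 fibroblast markers, Pdgfra stood at 37.9 to 50 FPKM, while Col1a1 did not exceed 2.17 FPKM and Col1a2 did not exceed 0.0140 FPKM.

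A cell carries separate sets of these enzymes for its cytosol and for its mitochondria, and both sets are encoded in the nucleus. Only the genes for the glycine and lysine enzymes, Gars and Kars, serve both compartments. Several cytosolic enzymes are held together in a multisynthetase complex. Many cytosolic synthetase genes are known targets of ATF4, the transcription factor of the amino acid and integrated stress response, which binds with C/EBP partners to a short composite element in promoters. The mitochondrial enzymes load the transfer RNAs used to translate the few messages of the mitochondrial genome, most of them for the respiratory chain.

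The promoter letters of the genes that carry this element core are shown first. The core TGATGNAA, where N is any base, was searched on both strands of the stretch from 250 bases before to 50 bases after each start site, in RefSeq promoters of GRCm38.p6. It was present in 5 of the 13 cytosolic genes with a promoter in the table (38.5%), in 0 of 14 mitochondrial genes and in 4.51% of all 27025 genes. All 5 belong to the 13 cytosolic genes that the literature links to ATF4, of which 8 had a promoter in the table. Of these 8, Eprs, Mars and Sars had no match, and they fell with shRNA1 by 0.62, 0.69 and 0.59 on the log2 scale. The genes with a match fell by 1.03 (Aars), 0.92 (Tars), 0.73 (Iars), 0.72 (Gars) and 0.65 (Yars). Whether a match goes with the size of a change was not tested. A match is a description of these letters and not a bound site. The stretches below run 5′ to 3′ on the strand of the gene, with the match in capitals. It reads TGATGNAA in Yars and its reverse complement TTNCATCA in the others.
Yars (chr4:129189866-129189917, + strand): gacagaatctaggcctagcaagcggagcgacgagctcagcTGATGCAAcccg
Gars (chr6:55037931-55037982, + strand): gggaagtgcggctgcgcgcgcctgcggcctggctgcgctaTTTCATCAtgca
Aars, upstream match (chr8:111033690-111033741, + strand): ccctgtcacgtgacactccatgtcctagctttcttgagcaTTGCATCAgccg
Aars, downstream match (chr8:111033811-111033862, + strand): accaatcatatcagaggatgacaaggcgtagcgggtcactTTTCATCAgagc
Iars (chr13:49682097-49682148, + strand): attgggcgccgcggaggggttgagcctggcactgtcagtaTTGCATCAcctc
Tars (chr15:11399662-11399713, - strand): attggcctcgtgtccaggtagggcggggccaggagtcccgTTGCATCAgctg
The matches of Gars and Tars begin 30 and 15 bases before the start site. With the start site counted as base 1, those of Yars and Iars begin at bases 4 and 8. Aars has a match that begins 112 bases before the start site and another that begins at base 10. Cars, Hars, Lars, Nars, Rars, Vars, Wars, Hars2 and Pars2 had no entry in the promoter table.

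Most cytosolic enzyme genes were lower with shRNA1. Of the 20 tested, 13 were lower than in WT by limma's moderated test with Benjamini-Hochberg adjustment over 11079 genes at 0.05, while 18.4% of all tested genes were lower. None was called higher, against 17.6% of all genes, and 1 was higher at an unadjusted p under 0.05. The median log2 change of the set was -0.61, beside -0.01 for all tested genes. Where the log2 change also had to reach 0.5 in size, 12 of 20 were lower against 2.92% of all genes, and 0 were higher against 4.70%. With shRNA3, 16 of the 20 were lower against 27.8% of all genes, and 2 were higher against 27.4%. The set's median was -0.37, beside -0.01 over all genes, and 6 of 20 were lower by at least 0.5, against 7.92% of all genes. Rescaling every library to the same FPKM total changed the share of calls that were higher, over all genes, to 34.9% from 49.0% with shRNA1 and to 37.6% from 49.7% with shRNA3. The 20 levels summed to 1079 ± 1.88 FPKM with shRNA1 and 1219 ± 9.53 FPKM with shRNA3, against 1447 ± 5.40 FPKM in WT (SD, n = 2 each), which is 74.6% and 84.2% of the WT sum.

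**Figure D1:**
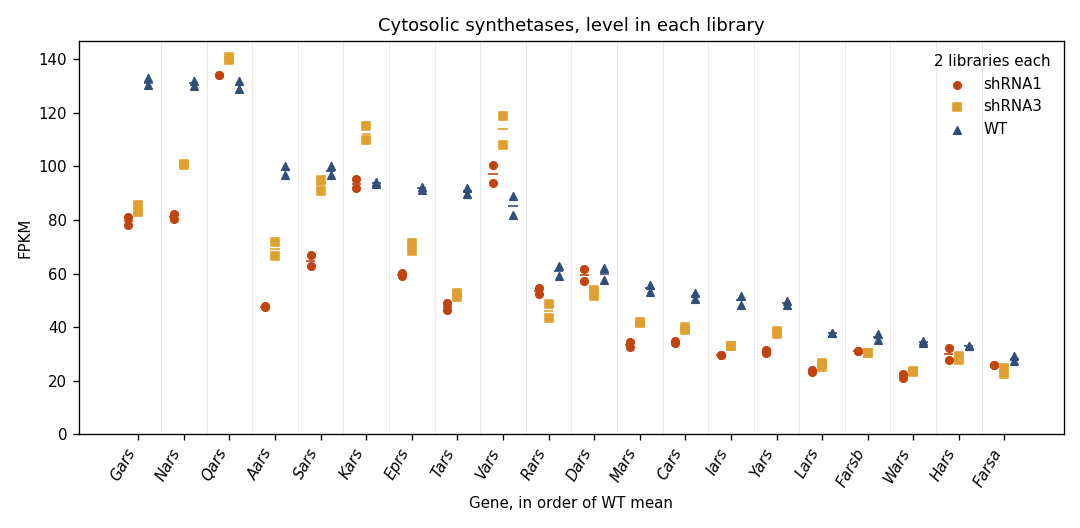
Level of each of the 20 cytosolic synthetase genes in FPKM (linear axis) in each of the 6 libraries. A point stands for each library and a dash for the group mean, with shRNA1, shRNA3 and WT in separate colours. Aars stands at 47.4 and 47.9 FPKM with shRNA1, 66.7 and 71.7 FPKM with shRNA3, and 96.9 and 100.2 FPKM in WT, while Qars stays between 129 and 141 FPKM in all libraries.

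Aars, the alanine enzyme on chromosome 8 (111033144 to 111057664, + strand, GRCm38), had 47.4 and 47.9 FPKM with shRNA1 and 66.7 and 71.7 FPKM with shRNA3, against 96.9 and 100.2 FPKM in WT. The 3 groups did not overlap and shRNA1 was lowest. Its log2 change was -1.03 ± 0.05 (SE) with shRNA1 (adjusted p = 5.58e-06, limma) and -0.51 ± 0.05 with shRNA3 (adjusted p = 9.96e-05), the largest fall with shRNA1 of the 36 genes. The annotated transcripts of Aars share 13.8% of their 31-base words with Exosc6, an RNA exosome gene on the same strand, and the sources used here do not say how reads of both were divided. Exosc6 had 9.18 and 8.09 FPKM with shRNA1 and 5.78 and 5.34 FPKM with shRNA3, against 9.88 and 10.6 FPKM in WT. Tars, the threonine enzyme on chromosome 15 (11382301 to 11399665, - strand), had 48.9 and 46.4 FPKM with shRNA1 and 51.1 and 52.7 FPKM with shRNA3, against 91.8 and 89.8 FPKM in WT. All 4 hairpin libraries lay far under both WT libraries, with log2 changes of -0.92 (adjusted p = 7.18e-06, limma) and -0.80 (adjusted p = 9.61e-06).

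Gars, the glycine enzyme of both compartments on chromosome 6 (55038007 to 55079500, + strand), had 81.1 and 78.1 FPKM with shRNA1 and 83.1 and 85.6 FPKM with shRNA3, against 133 and 130.3 FPKM in WT. The hairpin libraries stood close together and under WT, with log2 changes of -0.72 (adjusted p = 1.62e-05, limma) and -0.63 (adjusted p = 1.69e-05). Iars, the isoleucine enzyme of the complex on chromosome 13 (49682100 to 49734267, + strand), had 29.6 and 29.7 FPKM with shRNA1 and 32.8 and 33.0 FPKM with shRNA3, against 48.4 and 51.7 FPKM in WT. No groups overlapped, and the log2 changes were -0.73 and -0.59. Iars shares 14.5% of its 31-base words with the pseudogene Gm4849, so its level is less certain. Lars, the leucine enzyme of the complex, had 24.1 and 23.4 FPKM with shRNA1 and 26.7 and 25.3 FPKM with shRNA3, against 37.9 and 37.8 FPKM in WT. Wars, the tryptophan enzyme, had 21.2 and 22.7 FPKM with shRNA1 and 23.8 and 23.3 FPKM with shRNA3, against 34.8 and 34.2 FPKM in WT. Lars and Wars fell with both hairpins, by 0.65 and 0.63 on the log2 scale with shRNA1 and by 0.53 each with shRNA3.

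Another 5 genes linked to ATF4 were called lower with both hairpins and stood lowest with shRNA1, at a middle level with shRNA3 and highest in WT. Mars, the methionine enzyme of the complex, had 32.7 and 34.3 FPKM with shRNA1 and 41.9 and 41.6 FPKM with shRNA3, against 53.2 and 55.8 FPKM in WT. Nars, the asparagine enzyme, had 82.2 and 80.4 FPKM with shRNA1 and 101 and 100.5 FPKM with shRNA3, against 132 and 130 FPKM in WT. Yars, the tyrosine enzyme on chromosome 4 (129189760 to 129219607, + strand), had 30.4 and 31.4 FPKM with shRNA1 and 38.7 and 37.4 FPKM with shRNA3, against 48.3 and 49.7 FPKM in WT. In these 3 genes the groups did not overlap, and the log2 changes were -0.69, -0.68 and -0.65 with shRNA1 and -0.38, -0.37 and -0.36 with shRNA3. Eprs, a fused enzyme for glutamate and proline in the complex, had 59.0 and 60.1 FPKM with shRNA1 and 68.6 and 71.5 FPKM with shRNA3, against 92.5 and 91.3 FPKM in WT. Cars, the cysteine enzyme, had 34.0 and 35.0 FPKM with shRNA1 and 40.2 and 38.8 FPKM with shRNA3, against 50.5 and 52.9 FPKM in WT. Both fell with both hairpins, with log2 changes of -0.62 and -0.57 with shRNA1 and of -0.39 and -0.38 with shRNA3.

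The remaining genes of the list linked to ATF4 are Sars, called lower with shRNA1 alone, and Vars, called higher with shRNA3. Sars, the serine enzyme on chromosome 3 (108424865 to 108445209, - strand), had 66.8 and 62.8 FPKM with shRNA1 and 95.0 and 90.8 FPKM with shRNA3, against 100 and 96.7 FPKM in WT. The shRNA1 libraries were lower (log2 change -0.59 ± 0.05, adjusted p = 8.82e-05, limma), while the shRNA3 libraries lay close to WT (log2 change -0.08, adjusted p = 0.184). With every library rescaled to the same total, the shRNA3 value was -0.16 and passed the test (adjusted p = 0.0220). Vars, the valine enzyme on chromosome 17 (35000987 to 35016322, + strand), had 100.4 and 93.9 FPKM with shRNA1 and 108 and 119 FPKM with shRNA3, against 81.9 and 88.9 FPKM in WT. Every hairpin library lay above both WT libraries, and the change passed the test with shRNA3 (log2 change 0.41 ± 0.06, adjusted p = 0.00106, limma). With shRNA1 it was 0.18 (adjusted p = 0.0549, limma; 0.0472 to 0.0485 in the 3 alternatives in which it passed). Of the 13 genes linked to ATF4, 12 were lower with shRNA1 (median log2 change -0.65), against 18.4% of all genes. With shRNA3 11 were lower and 1, Vars, was higher (median -0.39), against 27.8% and 27.4% of all genes. The list was drawn up with earlier results of these data known, so these counts are a description and not a test.

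Of the other 7 cytosolic genes, 1 was lower with shRNA1, a share under the 18.4% of all genes. With shRNA3 5 were lower and 1 was higher, against 27.8% and 27.4% of all genes. Farsb, the beta chain of the phenylalanine enzyme, averaged 31.1 FPKM with shRNA1 and 30.3 FPKM with shRNA3, against 36.3 FPKM in WT, and fell by 0.22 (adjusted p = 0.0110, limma) and 0.25 (adjusted p = 0.00316) on the log2 scale. The shRNA1 call ended without WT replicate 2 (adjusted p = 0.0671). Farsa, the alpha chain of the same enzyme, averaged 25.9 ± 0.0707 FPKM with shRNA1 and 23.8 ± 1.52 FPKM with shRNA3, against 28.3 ± 1.52 FPKM in WT (SD, n = 2 each), and only the shRNA3 change of -0.24 passed the test, a call that ended without shRNA3 replicate 1 (adjusted p = 0.0770, limma) or WT replicate 2 (adjusted p = 0.0700). Rars, the arginine enzyme of the complex, had 52.5 and 54.6 FPKM with shRNA1 and 48.7 and 43.6 FPKM with shRNA3, against 62.7 and 59.0 FPKM in WT. The shRNA3 level was lower (log2 change -0.39, adjusted p = 0.00109, limma), and the shRNA1 value of -0.18 stood at the threshold (adjusted p = 0.0517), passing it in 6 of 15 alternatives.

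Dars and Hars, the aspartate and histidine enzymes, fell with shRNA3 by 0.18 and 0.20 on the log2 scale, calls that ended when either shRNA3 library was left out. With shRNA1 their values were -0.01 and -0.13 and did not pass. Hars and Hars2 are neighbours on opposite strands that share 6.68% and 3.82% of their 31-base words, and the sources used here do not give the strand setting of the authors' counting. Kars, the lysine enzyme of both compartments on chromosome 8 (111993443 to 112011323, - strand), had 91.9 and 95.2 FPKM with shRNA1 and 109.9 and 115 FPKM with shRNA3, against 94.2 and 93.4 FPKM in WT. It was higher with shRNA3 (log2 change 0.26, adjusted p = 0.00145, limma), while the shRNA1 value was -0.00 and did not pass. Qars, the glutamine enzyme, averaged 134 ± 0.0318 FPKM with shRNA1 and 140.1 ± 0.729 FPKM with shRNA3, against 130.5 ± 2.40 FPKM in WT, and passed neither test (adjusted p = 0.50 and 0.0510, limma). The shRNA3 value of 0.10 passed without the filter (adjusted p = 0.0343) and with median-of-ratios scaling (adjusted p = 0.0449), 2 of 15 alternatives.

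Members that fell stood on both sides of each of the other groupings of the cytosolic genes, to be read beside the 18.4% of all genes lower with shRNA1 and the 27.8% lower and 27.4% higher with shRNA3. Of the 8 members of the multisynthetase complex, 4 were lower with shRNA1 (median log2 change -0.40), and with shRNA3 6 were lower and 1 was higher (median -0.38). Of the 12 outside it, 9 were lower with shRNA1 (median -0.61), and with shRNA3 10 were lower and 1 was higher (median -0.36). Class I and class II enzymes differ in the fold of their catalytic domain. Of the 9 class I genes 6 were lower with shRNA1 and 7 with shRNA3, with medians of -0.63 and -0.38, and 1, Vars, was higher with shRNA3. Of the 10 class II genes 6 were lower with shRNA1 and 8 with shRNA3, with medians of -0.41 and -0.25, and 1, Kars, was higher with shRNA3. These medians are descriptions and the differences between the groupings were not tested.

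**Figure D2:**
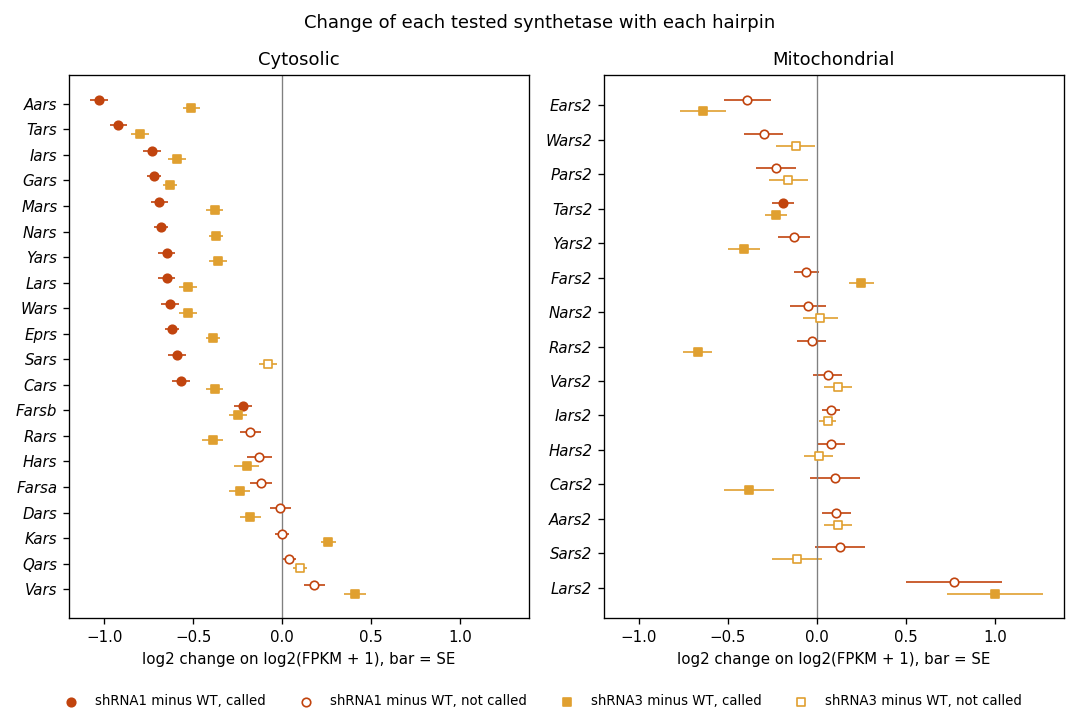
Log2 change on the log2(FPKM + 1) scale of each tested synthetase, shRNA1 minus WT (circles) and shRNA3 minus WT (squares), with bars for the SE and filled symbols for adjusted p under 0.05 by limma. Most cytosolic genes lie left of 0, down to -1.03 for Aars with shRNA1, and the mitochondrial genes lie on both sides of 0.

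The mitochondrial enzymes had 1 call with shRNA1 and 7 with shRNA3, in both directions. Of the 15 genes tested, 1 was lower with shRNA1, against 18.4% of all tested genes, and none was called higher, against 17.6%. At an unadjusted p under 0.05, 3 were lower and 1 was higher with shRNA1. With shRNA3, 5 of the 15 were lower against 27.8% of all genes, and 2 were higher against 27.4%, so the share that was lower stood near that of all genes and the share that was higher stood under it. By a size of at least 0.5, Rars2 and Ears2 were lower with shRNA3 and Lars2 was higher, 2 and 1 of the 15, against 7.92% and 8.17% of all genes. The medians were -0.03 with shRNA1 and -0.11 with shRNA3, and -0.04 and -0.11 without Lars2, a setting chosen after the values were seen. Mars2, the methionine enzyme, did not reach the minimum for the test, with 0.842 and 1.11 FPKM with shRNA1 and 0.716 and 1.05 FPKM with shRNA3, against 0.754 and 0.879 FPKM in WT. All 16 levels summed to 488 ± 29.2 FPKM with shRNA1 and 546 ± 55.0 FPKM with shRNA3, against 349 ± 109.7 FPKM in WT, a sum that Lars2 dominated. Without Lars2, the 15 remaining levels summed to 119 ± 1.28 FPKM with shRNA1 and 111 ± 1.64 FPKM with shRNA3, against 119 ± 0.579 FPKM in WT (SD, n = 2 each), or 99.4% and 93.4% of WT.

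Rars2, the mitochondrial arginine enzyme on chromosome 4 (34614957 to 34660167, + strand), had 9.75 and 11.3 FPKM with shRNA1 and 6.44 and 6.35 FPKM with shRNA3, against 11 and 10.5 FPKM in WT. Both shRNA3 libraries lay under all other libraries, and shRNA1 overlapped WT. The log2 change was -0.67 ± 0.08 (SE) with shRNA3 (adjusted p = 2.49e-04, limma) and -0.03 ± 0.08 with shRNA1 (adjusted p = 0.780). Ears2, the glutamate enzyme on chromosome 7 (122037213 to 122067263, - strand), had 1.11 and 1.15 FPKM with shRNA1 and 0.660 and 0.929 FPKM with shRNA3, against 1.63 and 1.94 FPKM in WT. All hairpin libraries lay under WT, with a log2 change of -0.64 with shRNA3 (adjusted p = 0.00410, limma) and of -0.39 with shRNA1 (adjusted p = 0.0507, between 0.0214 and 0.0464 in the 5 alternatives in which it passed). Its levels are so low that log2(FPKM + 1) understates the change.

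Yars2, the tyrosine enzyme, had 7.76 and 9.21 FPKM with shRNA1 and 6.69 and 6.88 FPKM with shRNA3, against 9.72 and 8.97 FPKM in WT. Only the shRNA3 libraries lay apart from WT, with a log2 change of -0.41 (adjusted p = 0.00470, limma), against -0.13 with shRNA1 (adjusted p = 0.282). Tars2, the threonine enzyme, had 8.87 and 8.77 FPKM with shRNA1 and 8.25 and 8.81 FPKM with shRNA3, against 10.1 and 10.3 FPKM in WT. Both hairpins had lower levels, with a log2 change of -0.19 for shRNA1 (adjusted p = 0.0474, limma) and of -0.23 for shRNA3 (adjusted p = 0.0141), but the shRNA1 call ended in 11 of 15 alternatives, without any 1 of the 6 libraries among them. The shRNA3 call ended without shRNA3 replicate 1 (adjusted p = 0.0792) or WT replicate 2 (adjusted p = 0.0642). Cars2, the cysteine enzyme, had 7.58 and 6.66 FPKM with shRNA1 and 5.62 and 4.13 FPKM with shRNA3, against 5.89 and 7.36 FPKM in WT. Its log2 change with shRNA3 of -0.38 (adjusted p = 0.0478, limma) was -0.20 without shRNA3 replicate 2 and -0.24 without WT replicate 2. That call ended in 9 of 15 alternatives, no filter, quantile normalization and the replicate block among them.

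Fars2, the phenylalanine enzyme, had 9.01 and 8.19 FPKM with shRNA1 and 10.9 and 10.8 FPKM with shRNA3, against 8.85 and 9.17 FPKM in WT. The shRNA3 libraries lay above all others, with a log2 change of 0.25 (adjusted p = 0.0148, limma). That call ended without either shRNA3 library or without WT replicate 1. It also ended with the same total in each library (0.18, adjusted p = 0.0538, limma). Lars2, the leucine enzyme on chromosome 9 (123366927 to 123462666, + strand), had 389 and 350 FPKM with shRNA1 and 475 and 394 FPKM with shRNA3, against 152 and 307 FPKM in WT. Every hairpin library lay above both WT libraries, but the WT libraries differed from each other by 67.2% of their mean. The log2 change was 1.0 ± 0.27 (SE) with shRNA3 (adjusted p = 0.0135, limma), and 0.86 without shRNA3 replicate 1 (adjusted p = 0.0784). It was 0.50 without WT replicate 1 (adjusted p = 0.0103, limma) and 1.5 without WT replicate 2 (adjusted p = 7.45e-05). With shRNA1 it was 0.77 ± 0.27 (adjusted p = 0.0548, limma), 0.27 without WT replicate 1 (adjusted p = 0.124) and 1.27 without WT replicate 2 (adjusted p = 2.53e-04), so its size depended on which WT library was used. The other 8 tested mitochondrial genes, Aars2, Hars2, Iars2, Nars2, Pars2, Sars2, Vars2 and Wars2, were not called in any contrast. Wars2 with shRNA1 had the largest value among them (-0.30, adjusted p = 0.0630, limma), which passed with the same total in each library (-0.35, adjusted p = 0.0328) and with a prior without trend (adjusted p = 0.0410). Their group means lay between 2.27 FPKM (Wars2 with shRNA1) and 38.9 FPKM (Iars2 with shRNA1). Iars2 shares 22.4% of its 31-base words with Rab3gap2 on the opposite strand.

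**Figure D3:**
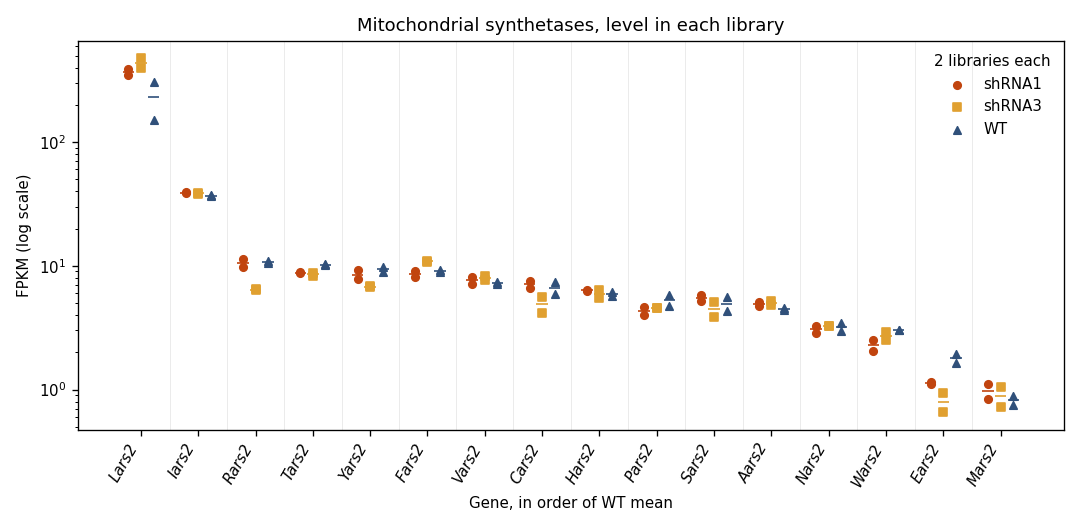
Level of each of the 16 mitochondrial synthetase genes in FPKM (log axis) in each of the 6 libraries, with a point for each library, a dash for the group mean, and shRNA1, shRNA3 and WT in separate colours. Lars2 stands apart at 152 to 475 FPKM, and the Rars2 libraries of shRNA3, at 6.44 and 6.35 FPKM, lie under the other libraries.

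The cytosolic set was expressed at a far higher level than the mitochondrial set in every group. The median over the genes was 47.6 FPKM with shRNA1, 49.0 FPKM with shRNA3 and 60.3 FPKM in WT for the 20 cytosolic genes, and 6.72, 5.47 and 6.27 FPKM in the same groups for the 16 mitochondrial genes. Cytosolic means reached from 22.0 FPKM (Wars) to 134 FPKM (Qars) with shRNA1 and from 23.6 FPKM (Wars) to 140.1 FPKM (Qars) with shRNA3, against 28.3 FPKM (Farsa) to 131 FPKM (Gars) in WT. Lars2 was the highest mitochondrial gene in each group, and Iars2, the isoleucine enzyme, followed with 38.9, 38.4 and 36.7 FPKM. Replicates were closer for the cytosolic genes, whose libraries differed by a median of 3.48%, 3.83% and 3.02% of the mean in shRNA1, shRNA3 and WT, against 12.4%, 6.69% and 7.04% for the mitochondrial genes. For 13 amino acids that have a gene in each set, the ratio of the cytosolic to the mitochondrial level was lower with both hairpins than in WT for 8, lay lower with 1 hairpin and higher with the other for 4, and was higher with both for 1. For alanine it was 9.63 with shRNA1 and 13.9 with shRNA3, against 21.9 in WT. For threonine it was 5.40 and 6.08, against 8.91 in WT. Valine was the 1 with a higher ratio with both hairpins, at 12.8 and 14.3, against 11.8 in WT. The 4 with a ratio on both sides of WT were cysteine, arginine, serine and tyrosine, each above WT with shRNA3. The 8 lower ratios include that of methionine, where Mars2 did not reach the minimum for the test. They also include that of leucine, where the WT libraries of Lars2 differed by 67.2% of their mean. These ratios have no test. Glutamate, proline and phenylalanine were left out, because Eprs, Farsa and Farsb do not match Ears2, Pars2 and Fars2 by symbol. Eprs stood at 64.8% and 76.3% of WT with shRNA1 and shRNA3, against 63.1% and 44.4% for Ears2 and 82.1% and 87.0% for Pars2. Farsa stood at 91.6% and 84.2% and Farsb at 85.5% and 83.5%, against 95.5% and 121% for Fars2.

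The hairpins themselves differed in many of these genes. Of the 20 cytosolic genes, 10 were higher with shRNA3 than with shRNA1, against 22.0% of all tested genes, and 2 were lower, against 20.5%. The set's median log2 difference was 0.13, beside 0.01 for all tested genes, and 2 genes were higher by at least 0.5, against 3.76% of all genes. Those were Aars, with 66.7 and 71.7 FPKM with shRNA3 against 47.4 and 47.9 FPKM with shRNA1 (log2 difference 0.53 ± 0.05, adjusted p = 1.74e-04, limma), and Sars, with 95.0 and 90.8 FPKM against 66.8 and 62.8 FPKM (0.51 ± 0.05, adjusted p = 1.87e-04). Mars (0.31), Nars (0.31), Yars (0.29), Kars (0.26), Eprs (0.23), Vars (0.22), Cars (0.19) and Iars (0.14) were also higher with shRNA3. The call for Iars ended in 9 of 15 alternatives, that for Vars without shRNA1 replicate 2 (adjusted p = 0.124) or shRNA3 replicate 2 (adjusted p = 0.147), and that for Cars without shRNA1 replicate 1 (adjusted p = 0.0732) or shRNA3 replicate 1 (adjusted p = 0.0811). For Tars (0.12, adjusted p = 0.0660), Gars (0.08, adjusted p = 0.153), Lars (0.13, adjusted p = 0.0724) and Wars (0.10, adjusted p = 0.172) no difference between the hairpins passed limma's test.

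Rars (-0.21) and Dars (-0.17) were the cytosolic genes lower with shRNA3 than with shRNA1, and both calls ended without shRNA1 replicate 2 or shRNA3 replicate 2. The Rars value was -0.13 without shRNA3 replicate 2. Of the 15 mitochondrial genes, 1 was higher with shRNA3 than with shRNA1 and 3 were lower, shares that lay at or under the 22.0% and 20.5% of all genes. Rars2 was lower by 0.63 on the log2 scale (adjusted p = 6.04e-04, limma), 1 of the 15 by a size of at least 0.5 against 4.91% of all genes, with 6.44 and 6.35 FPKM with shRNA3 against 9.75 and 11.3 FPKM with shRNA1. Cars2 (-0.48, adjusted p = 0.0265, limma) and Yars2 (-0.28, adjusted p = 0.0316) were lower as well, and Fars2 was higher (0.31, adjusted p = 0.00785). The Yars2 value was -0.17 without shRNA1 replicate 2 (adjusted p = 0.183) and its call also ended without either shRNA3 library. The Cars2 value was -0.29 without shRNA3 replicate 2 (adjusted p = 0.154), and its call also ended without shRNA1 replicate 1 (adjusted p = 0.122). The Fars2 call ended without shRNA1 replicate 2 (adjusted p = 0.0506).

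**Figure D4:**
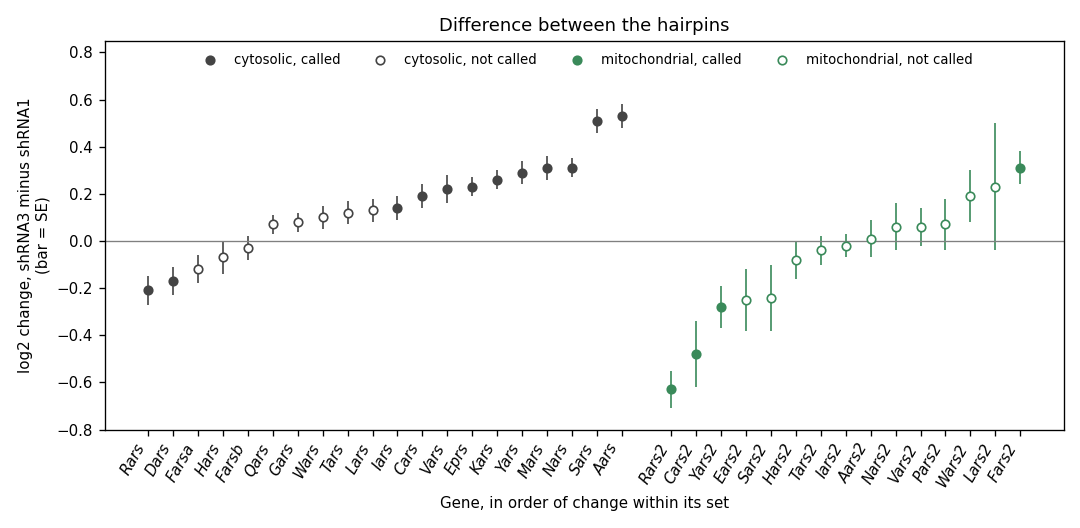
Log2 difference on the log2(FPKM + 1) scale, shRNA3 minus shRNA1, of each tested synthetase, with bars for the SE, separate colours for the cytosolic and mitochondrial sets and filled symbols for adjusted p under 0.05 by limma. Aars (0.53) and Sars (0.51) lie highest among the called genes and Rars2 (-0.63) lies lowest.

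Genes that work beside the synthetases changed in part. ATF4 itself is the factor named above, and Atf4 had 209 and 206 FPKM with shRNA1 and 205 and 195 FPKM with shRNA3, against 385 and 387 FPKM in WT, with log2 changes of -0.89 and -0.94. Among 36 genes of tRNA maturation, export and modification, 14 were lower and 1 was higher with shRNA1 (median log2 change -0.15), against 18.4% and 17.6% of all genes. With shRNA3 20 were lower and 1 was higher (median -0.26), against 27.8% and 27.4%. Xpot, the nuclear export receptor of transfer RNAs, had 13.6 and 13.4 FPKM with shRNA1 and 13.9 and 13.9 FPKM with shRNA3, against 28.6 and 28.3 FPKM in WT (log2 changes -1.02 and -0.98). Trmt61a and Trmt6, the subunits of a transfer RNA adenosine methyltransferase, fell by 0.86 and 0.43 with shRNA1 and by 1.5 and 0.99 with shRNA3. Mettl1, the catalytic subunit for 7-methylguanosine in transfer RNAs, changed by -0.82 and -0.80, and Pop1, a subunit of RNase P, by -0.69 and -1.04.

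Of the 3 scaffolds of the multisynthetase complex, Aimp1 was lower with shRNA1 (-0.17) and Eef1e1 with shRNA3 (-0.32). That is 1 of 3 with each hairpin, beside 18.4% and 27.8% of all genes. With shRNA3 compared to shRNA1, Aimp1 was higher (0.22) and Aimp2 (-0.44) and Eef1e1 (-0.23) were lower, beside 22.0% and 20.5% of all genes. Of 8 other synthetases and partners, 1 was higher with shRNA1 and 2 with shRNA3, beside 17.6% and 27.4% of all genes. Limma called 0 of the 8 lower with either hairpin, beside 18.4% and 27.8%. Gatc, a subunit of the mitochondrial amidotransferase for glutamine and 1 of the 2, rose by 0.29 on the log2 scale with shRNA3. Of the 8 cytosolic elongation and termination factors, 1 was higher and 1 lower with shRNA1, and 4 were higher and 3 lower with shRNA3, among them the elongation factor Eef2 (0.38). The shRNA1 counts of these factors lay under the 17.6% and 18.4% of all genes, and the shRNA3 counts stand beside 27.4% and 27.8%. Of 4 genes of editing and deacylation, 1, Dtd2, was lower with shRNA3 (-0.32), near the 27.8% of all genes, and 0 were higher, against 27.4%. With shRNA1 limma called 0 of the 4, against 18.4% lower and 17.6% higher over all genes, with 0 at an unadjusted p under 0.05. Of 9 mitochondrial translation factors, 2 were lower with shRNA1, and 3 were lower and 1 was higher with shRNA3, shares of lower calls that stand near the 18.4% and 27.8% of all genes. Mrrf, the mitochondrial ribosome recycling factor, had 6.81 and 7.60 FPKM with shRNA1 and 12.7 and 14.1 FPKM with shRNA3, against 9.83 and 10 FPKM in WT. It was lower with shRNA1 (-0.41, adjusted p = 0.00453, limma) and higher with shRNA3 (0.40, adjusted p = 0.00268), and shRNA3 exceeded shRNA1 by 0.82 on the log2 scale (adjusted p = 1.80e-04).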

How the data were processed

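The authors deposited 1 table of gene symbols and FPKM values per library, and the submitters' processing notes name TopHat2 2.0.13, Bowtie2 2.2.3, SAMtools 0.1.19, Cufflinks 2.2.1 and mm10, without roles. The unit was taken from Cufflinks and from the values, since the tables do not name it. RNA was isolated with an RNeasy kit and made into libraries with a stranded mRNA kit, per the labels' protocols. The sources used here do not give the annotation, the strand setting or how reads with several matching genes were treated. Absolute depth is unknown, and relative depth came from ratios of low values. FPKM depends on the mapped total, so a rise of abundant genes lowers others.

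Groups came from the sample titles. Values were transformed to log2(FPKM + 1), which understates changes of low genes, and genes whose mean over all 6 libraries reached 1 FPKM were tested. In limma 3.58.1 (R 4.3.3), 1 model with a mean for each of the 3 groups took in every library, with a trended prior, 3 residual and 4.96 prior degrees of freedom. Contrasts of each hairpin with WT, and of shRNA3 with shRNA1, were two-sided, with Benjamini-Hochberg adjustment over all 11079 genes at 0.05. The fit was tested on simulated data. Lists are described by counts and medians and were not tested. The members and lists were chosen with earlier results of these data known. All members were named, with the values of each library for those called that changed by 0.5 or more on the log2 scale and for called mitochondrial genes. Other values by library, and genes outside the lists, were chosen after their values were seen. Of related lists, at most 3 called genes with the largest changes were named, and a few listed genes are not reported here. Coordinates and transcripts were those of GENCODE on GRCm38, and promoters those of RefSeq on GRCm38.p6. Alternatives were another pseudocount, filter, scaling or prior, fits of 2 groups, a replicate block and leaving out each library. Loading used pandas 2.3.3 and NumPy 2.4.6 in Python 3.11.15, and figures matplotlib 3.10.9.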

Additional observations from a re-analysis of the deposited data

How the results depend on the processing

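With 2 libraries a group and no counts, small changes of low genes could not be judged. The counts of cytosolic genes lower with shRNA1 (13) and higher (2) or lower (16) with shRNA3 kept within 1.5 times in every alternative run. Of the calls against WT, 12 of 13 cytosolic and 0 of 1 mitochondrial calls with shRNA1 were made in every alternative, as were 15 of 18 and 3 of 7 with shRNA3. Between the hairpins these were 7 of 12 and 1 of 4. Over all genes, 2035 calls were lower with shRNA1, against 1318 without WT replicate 1, 1331 without WT replicate 2, 1340 without shRNA1 replicate 1 and 1323 without shRNA1 replicate 2. The cause was not tested for any change below, and fewer samples entered each fit that left out a library.

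A minimum of 5 FPKM, which tests fewer genes, gave 1 cytosolic and 1 mitochondrial gene higher with shRNA1 and mitochondrial medians of 0.06 and 0.01 with shRNA1 and shRNA3. No filter gave mitochondrial medians of 0.02 and -0.05, 1 mitochondrial gene higher with shRNA3, and between the hairpins 0 cytosolic and 1 mitochondrial gene lower. The same total in each library gave cytosolic medians of -0.66 and -0.45, mitochondrial medians of -0.08 and -0.17, 1 mitochondrial gene higher and 3 lower with shRNA1, and 1 higher with shRNA3. Quantile normalization gave medians of -0.41 for the cytosolic and -0.08 for the mitochondrial set with shRNA3. Median-of-ratios scaling gave 0 mitochondrial genes lower with shRNA1, and a prior without trend gave 3, with 0 cytosolic genes lower between the hairpins. The deviations of replicates with the same number correlated at 0.199 between the hairpins and at 0.01 and -0.072 with WT, so not every pair passed 0.1 and the numbers were not taken to pair libraries. The replicate block gave 0 mitochondrial genes lower with shRNA1 and 1 cytosolic gene lower between the hairpins, where the calls of Dars and Iars ended (adjusted p = 0.0625 and 0.0709, limma).

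Leaving out 1 library at a time gave ranges. With shRNA1 they were 0 to 1 genes higher in each set, 0 mitochondrial genes lower, and a mitochondrial median of -0.04 to 0.03. With shRNA3 they were cytosolic medians of -0.38 to -0.34, 0 to 2 mitochondrial genes higher, 3 to 5 lower, and a mitochondrial median of -0.11 to 0.02. Between the hairpins they were 0 to 2 cytosolic genes lower, a cytosolic median of 0.13 to 0.15, 0 to 1 mitochondrial genes higher and 1 to 3 lower.

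Signs turned only for genes that passed no test in the contrast. With the same total, Qars with shRNA1 was -0.02 (-0.01 with quantile normalization), Hars2, Iars2 and Nars2 with shRNA3 were -0.06, -0.01 and -0.04, and Aars2 between the hairpins was -0.00. Without 1 library, the values with shRNA1 ran from -0.06 to 0.05 for Dars, -0.03 to 0.02 for Kars, -0.04 to 0.23 for Cars2, -0.12 to 0.00 for Fars2, -0.13 to 0.03 for Nars2, -0.13 to 0.06 for Rars2, -0.02 to 0.28 for Sars2 and -0.03 to 0.15 for Vars2. With shRNA3 they ran from -0.08 to 0.10 for Hars2, -0.06 to 0.10 for Nars2 and -0.27 to 0.05 for Sars2. Between the hairpins they ran from -0.17 to 0.03 for Hars, -0.04 to 0.06 for Aars2, -0.16 to 0.01 for Hars2, -0.04 to 0.00 for Iars2, -0.01 to 0.13 for Nars2, -0.02 to 0.16 for Pars2 and -0.03 to 0.15 for Vars2.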
